A study of Mus musculus with 20 samples.

Results

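Lysosomal hydrolases and membrane proteins, together with the transcription factor Tfeb, were followed as a group of 38 genes in cultured mouse cardiac fibroblasts. The genes were taken by name from a list of lysosomal genes, which was drawn up with earlier results of these data known. All 38 had a row among the 55414 identifiers of the count table, and all 38 were among the 15624 genes tested. The cells were primary cardiac fibroblasts from Hyal2 fl/fl mice, used at passage 2. All 5 groups carried the floxed allele and all received an adenovirus, and each group held 4 libraries. The groups were a GFP virus as control (GFP), a Cre virus that deletes exon 2 of Hyal2 (Cre), a virus that overexpresses Hyal2 (Hyal2), and the GFP or the Cre virus with TGFB (GFP_TGFB and Cre_TGFB). Cells were serum starved for 24 h, exposed to virus for 5 h and kept for 48 h with growth factor at 20 ng/mL. It is not clear from the labels whether the cultures without TGFB received bFGF in its place. The genotype label reads wild type C57BL/6J although the treatment text names floxed cells, so the deletion rests on the virus. Replicates 1 and 2 of each group were female and replicates 3 and 4 male, and the replicate numbers mark 4 cell isolates shared by the groups.

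Lysosomes are acidic organelles in which hydrolases break down proteins, glycans and lipids that arrive by endocytosis, phagocytosis or autophagy. The hydrolases are tagged with mannose 6-phosphate in the Golgi and sorted to the organelle, the vacuolar proton pump (V-ATPase) keeps its lumen acidic, and glycosylated membrane proteins such as LAMP proteins line its membrane. TFEB is a transcription factor that binds a short DNA motif, CACGTG, in the promoters of many lysosomal genes and is held in the cytoplasm by the kinase mTORC1. In fibroblasts, lysosomal enzymes take part in the turnover of collagen and of glycosaminoglycans such as hyaluronan, and HYAL2 is a hyaluronidase that cuts hyaluronan at the cell surface before lysosomal enzymes finish the digestion. TGFB turns fibroblasts into matrix-secreting myofibroblasts.

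Library totals ran from 38.6 to 104.8 M counts, and the lowest count of any of the 38 genes in any library was 278. Levels are CPM, read counts scaled to a common library size with TMM factors. A floor of 3 counts is 0.0286 to 0.0777 CPM, which covers counting error only. Hyal2 itself was at 41.2 ± 3.46 CPM (SD, n = 4) in GFP, 10.4 ± 2.90 in Cre, 934 ± 466 in the Hyal2 group, and, with TGFB, 36.8 ± 3.90 (GFP_TGFB) and 7.42 ± 1.56 (Cre_TGFB), in the direction of each virus label. The 10 cardiac fibroblast markers summed to 37291 to 70024 CPM over the 20 libraries. By edgeR, 8 of the 10 were lower in GFP_TGFB than in GFP, where 28.6% of all genes were. Sums were 1.22 to 4.55 CPM for 7 cardiomyocyte markers over all libraries, and 31.6 to 36.5 CPM in GFP and 10.9 to 17.1 CPM in GFP_TGFB for 7 endothelial markers. Markers of macrophages and leukocytes were present: the 17 markers summed to 263 to 621 CPM in GFP and to 149.9 to 373 CPM in GFP_TGFB. Lyz2, the lysozyme of myeloid cells, made up 53.7% of the sum in GFP at 224 ± 79.5 CPM (SD, n = 4), the other 16 were each at 33.9 CPM or less, and 0 of the 17 were at 0 in all libraries of any group. With edgeR's quasi-likelihood test, 8 of these 17 markers were lower and 0 higher in GFP_TGFB than in GFP, where 28.6% of all genes were lower. With the replicate number as a block 16 were lower, where 32.1% of all genes were. Macrophages are rich in lysosomes, and the part of these cells in the results below was not tested. In bulk libraries, fewer cells of a type and less RNA per cell cannot be told apart.

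The 38 genes spanned a wide range of levels. Scaled to exon length, the highest in GFP was Ctsd, the aspartic protease cathepsin D, at 513 CPM per kb. It was followed by the membrane glycoprotein Lamp1 at 370.5, by Psap at 366 and by Ctsz at 257 CPM per kb. Psap encodes the precursor of the saposins, small proteins that help hydrolases reach their lipids. The lowest were Tfeb at 3.12 CPM per kb, Idua at 4.13, Mcoln1 at 4.67 and Manba at 4.87. The 38 genes took 1.10% of all counts in GFP (1.07% to 1.13% over 4 libraries), 1.10% in Cre and 1.07% in the Hyal2 group. With TGFB the share was 0.924% (0.920% to 0.927%) after GFP virus and 0.900% (0.873% to 0.929%) after Cre virus. The libraries with TGFB therefore did not overlap those without it in this share of raw counts. The share was not scaled with TMM factors, which ran from 0.944 (GFP_TGFB replicate 3) to 1.06 (Hyal2 replicate 2). It does not show whether the libraries stay apart on the CPM scale used for the levels.

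**Figure D1:**
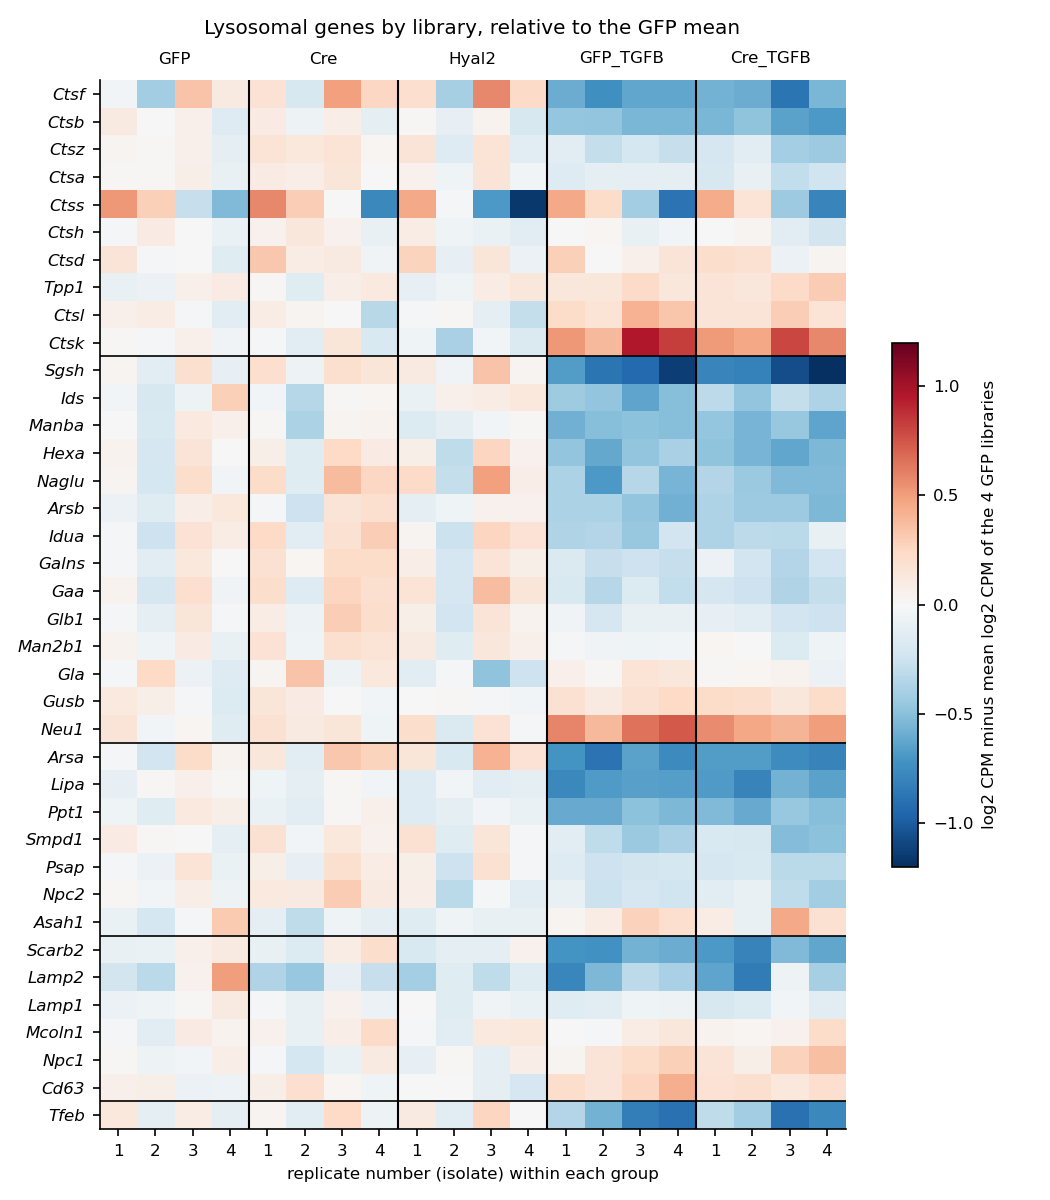
Each cell is the level of 1 gene (rows, grouped by role) in 1 library (columns, replicate numbers 1 to 4 within each group), as log2 CPM minus the mean log2 CPM of the 4 GFP libraries. Most rows turn blue, which is lower, in the 8 libraries with TGFB, while Ctsk and Neu1 turn red.

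GFP_TGFB was set against GFP to see how lysosomal genes respond to TGFB in cells with the control virus. Most of the lysosomal genes that changed were lower with TGFB: 19 of 38 fell, 5 rose and 14 did not pass an edgeR adjusted p of 0.05. Over all genes tested, 28.6% were called lower, 26.6% higher and 55.3% either way. The share of the 38 that changed either way was thus near that of all genes, with more of the calls on the lower side. Their median log2 fold change was -0.22, against -0.02 over all genes, and the values ran from -0.90 for Sgsh to 0.69 for Ctsk. The GFP and GFP_TGFB libraries did not overlap for 19 genes that were lower and 5 that were higher, where all genes gave 25.5% and 24.6%, or 50.2% either way. Within isolates, 25 of the 38 were lower with TGFB in all 4, 8 were higher in all 4 and 5 were mixed, where 34.9% of all genes were lower and 32.1% higher in all 4. With the replicate block, 22 were called lower and 7 higher, where all genes gave 32.1%, 29.8% and, either way, 61.9%. Without replicate 3, 14 were called lower and 3 higher. Scaling by library totals without TMM factors moved the median of all genes to -0.13 and its calls from 4159 higher and 4475 lower to 3144 higher and 5521 lower. Among the 38 genes that scaling called 24 lower and 2 higher, and the calls of Ctsl, Gusb and Cd63 were lost.

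The hydrolases of glycosaminoglycans and glycoproteins changed mostly downward. Of 14, 8 fell, 2 rose and 4 did not pass, with a median log2 fold change of -0.30. Of all genes, 28.6% fell, 26.6% rose and 55.3% were called either way, with a median of -0.02. Sgsh, the sulfatase that starts the removal of sulfated glucosamine from heparan sulfate, had the largest fall of the 38 genes. It was at 58.4, 52.2, 65.0 and 53.3 CPM in isolates 1 to 4 with GFP and at 35.9, 31.1, 29.8 and 26 CPM with GFP_TGFB. Every library with TGFB was below every one without it. The level fell by 46.3% (log2 fold change -0.90, SE 0.11, edgeR adjusted p = 1.83e-06). Naglu, the glucosaminidase that acts later on the same chain, fell from 49.2 ± 5.86 to 34.9 ± 3.75 CPM (SD, n = 4), or by 29% (edgeR adjusted p = 0.00445). Ids and Idua, the sulfatase and the iduronidase that act on heparan and dermatan sulfate, fell by 30.3% and 21.8%, though the Idua groups overlapped. Arsb, which desulfates dermatan and chondroitin sulfate, fell by 27%, and Galns, a sulfatase for keratan and chondroitin sulfate, fell by 15.8%. The call of Idua was lost without replicate 1 or 3 and that of Galns without replicate 3 or 4. Gusb and Glb1, which also act on sulfated glycosaminoglycans, did not fall by this test, and their values follow.

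Hyaluronan fragments are finished in the lysosome by beta-hexosaminidase and beta-glucuronidase, and Hexa and Gusb, genes of these enzymes, moved apart. Hexa was at 196, 165, 212 and 190.2 CPM with GFP and at 137, 124, 137 and 145 CPM with GFP_TGFB. The groups did not overlap and the level fell by 29% (log2 fold change -0.49, SE 0.10, edgeR adjusted p = 4.07e-04). Gusb, the beta-glucuronidase, was at 109, 105, 98.5 and 89.4 CPM with GFP and at 114, 108, 114 and 118 CPM with GFP_TGFB. The Gusb groups overlapped at their edges, and the rise of 12.8% (log2 fold change 0.17, SE 0.06, edgeR adjusted p = 0.0187) did not pass without replicate 3, without replicate 4, without GFP replicate 4 (adjusted p = 0.0812), with library totals or in 2 other settings. Neu1, the sialidase that trims sialic acid from glycoproteins, was at 29.9, 26.3, 27.3 and 24.4 CPM with GFP and at 40.3, 35.3, 42.3 and 44.8 CPM with GFP_TGFB. All 4 isolates rose and the groups did not overlap (1.51-fold, log2 fold change 0.59, SE 0.09, edgeR adjusted p = 1.73e-05). Of the glycoprotein enzymes, the beta-mannosidase Manba fell by 30.4%, from 33.9 ± 2.89 to 23.6 ± 0.598 CPM. The alpha-mannosidase Man2b1 was at 83.6 ± 4.99 and 81.4 ± 0.782 CPM (log2 fold change -0.04, interval of 2 SE -0.18 to 0.10). The beta-galactosidase Glb1, the alpha-galactosidase Gla and the glycogen-cutting alpha-glucosidase Gaa had log2 fold changes of -0.11, 0.09 and -0.25 that did not pass. Gaa was called lower with the replicate block (adjusted p = 0.0100).

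Genes of lipid breakdown mostly fell: of 7, 5 fell, 0 rose and 2 did not pass, with a median of -0.31. Over all genes 28.6% fell, 26.6% rose and 55.3% were called either way, and the median was -0.02. Arsa, the sulfatase that degrades the myelin lipid sulfatide, was at 106, 92.0, 126 and 111 CPM with GFP and at 65.8, 58.3, 69.1 and 63.8 CPM with GFP_TGFB. The groups were well apart and Arsa fell by 40.9% (log2 fold change -0.76, SE 0.11, edgeR adjusted p = 1.60e-05). Lipa, the acid lipase that frees cholesterol and fatty acids from lipoproteins, was at 147, 159, 164 and 159 CPM with GFP and at 92.2, 97.8, 99.8 and 99.5 CPM with GFP_TGFB. The fall was nearly the same in each isolate, with a mean log2 difference of -0.69 ± 0.02 (SD, n = 4), and Lipa had the smallest edgeR adjusted p of the 38 genes, 6.86e-09. Ppt1, a thioesterase that removes palmitate from proteins, fell by 32.3% from 109 ± 8.95 to 73.7 ± 2.90 CPM. The acid sphingomyelinase Smpd1 fell by 19.5% and Psap by 13.5%. The call of Smpd1 was lost without replicate 3, and that of Psap without replicate 1, 3 or 4. Asah1, the acid ceramidase, had a log2 fold change of 0.14 (SE 0.11), and Npc2, a soluble cholesterol carrier, one of -0.20 that passed in 3 of 11 alternatives, the block among them (adjusted p with the block = 0.0268).

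Of the 10 proteases, 2 rose, 3 fell and 5 did not pass, with a median of -0.08. That is no larger a share of calls than the 55.3% of all genes. Ctsk, the collagen-degrading cathepsin K, was at 61.2, 59.6, 63.2 and 59.1 CPM with GFP and at 87.2, 79.5, 118 and 108 CPM with GFP_TGFB. Its rise was the largest of the 38 genes at 1.62-fold (log2 fold change 0.69, SE 0.11, edgeR adjusted p = 3.63e-05), and the male isolates 3 and 4 reached the highest levels. Ctsl, an endopeptidase of broad use, was at 869, 889.8, 823 and 764 CPM with GFP and at 972, 935, 1117 and 1051 CPM with GFP_TGFB. The groups did not overlap and the rise was 1.22-fold (log2 fold change 0.28, SE 0.09, edgeR adjusted p = 0.0103), a call lost without replicate 3. Ctsf, another cysteine protease, was at 36.9, 28.4, 47.9 and 40.9 CPM with GFP and at 25.1, 22.8, 24.5 and 24.6 CPM with GFP_TGFB. The isolates differed widely without TGFB and little with it, and Ctsf fell by 37.1% (log2 fold change -0.67, SE 0.17, edgeR adjusted p = 0.00308). Ctsb, an abundant cysteine protease, fell by 29.8% from 973 ± 74.1 to 683 ± 21.9 CPM, and the carboxypeptidase Ctsz fell by 14.7%, a call lost without replicate 1 or 3. The carboxypeptidase Ctsa, which shields Glb1 and Neu1 proteins in a complex, had a log2 fold change of -0.13 and the tripeptidyl peptidase Tpp1 one of 0.16. Both passed with the replicate block (adjusted p = 0.0484 and 0.00696). Ctsd was at 1205 ± 103 and 1316 ± 113 CPM, the aminopeptidase Ctsh had a log2 fold change of -0.03, and Ctss, a cathepsin of antigen-presenting cells, had one of -0.13 with an SE of 0.37.

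Among the 6 membrane proteins, 1 rose, 2 fell and 3 did not pass, no larger a share of calls than the 55.3% of all genes. Scarb2, the receptor that carries glucocerebrosidase to the lysosome, was at 961, 971, 1069 and 1104 CPM with GFP and at 625, 618, 689.6 and 680.1 CPM with GFP_TGFB. Each isolate fell by a similar amount (mean log2 difference -0.65 ± 0.04, SD, n = 4), 36.4% in all (edgeR adjusted p = 2.13e-06). Cd63, a tetraspanin of late endosomes and exosomes, was at 548, 549.9, 500.3 and 501 CPM with GFP and at 607, 585, 628 and 709 CPM with GFP_TGFB. The groups were apart and the rise was 1.20-fold (log2 fold change 0.27, SE 0.07, edgeR adjusted p = 0.00286). Lamp1 was at 941, 957, 1000.0 and 1066 CPM with GFP and at 893, 907, 952 and 948 CPM with GFP_TGFB. The groups overlapped, and the log2 fold change of -0.10 (interval of 2 SE -0.21 to 0.01) did not pass. Lamp2, the related glycoprotein that also serves chaperone-mediated autophagy, was at 319.9, 298, 388 and 528 CPM with GFP and at 217, 258, 300.3 and 285 CPM with GFP_TGFB. GFP replicate 4 stood above all other libraries for Lamp2. The fall of 30.9% (log2 fold change -0.53, SE 0.17, edgeR adjusted p = 0.0109) became -0.34 without that library and was no longer called (adjusted p = 0.0686). Npc1, which exports cholesterol from the lysosome, had a log2 fold change of 0.18 that passed with the block (adjusted p = 0.0147), and the cation channel Mcoln1 one of 0.05.

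Tfeb was among the genes that fell. It was at 19.3, 16.3, 18.8 and 16.4 CPM with GFP and at 13.8, 11.9, 9.95 and 9.47 CPM with GFP_TGFB. Every library with TGFB was below every one without it, and the fall was 36.1% (log2 fold change -0.65, SE 0.14, edgeR adjusted p = 5.62e-04). Of 17 tested genes for TFEB relatives and their mTORC1 control, 9 rose and 1 fell, where 26.6% of all genes rose and 28.6% fell. The share called either way was thus near the 55.3% of all genes. Lamtor3, a subunit of the complex that anchors mTORC1 to the lysosome, rose from 39.6 to 77.3 CPM (log2 fold change 0.96). Of the other subunits, Lamtor1 rose (0.29), while Lamtor2 (0.02), Lamtor4 (0.13) and Lamtor5 (0.03) did not pass. Flcn and Fnip2, partners that act on the Rag GTPases, rose with log2 fold changes of 0.56 and 0.59. Tfe3, the gene of a close relative of TFEB, rose from 67.5 to 79.9 CPM (edgeR adjusted p = 6.00e-04, log2 fold change 0.24). After Cre virus Tfe3 did not pass (log2 fold change 0.12, edgeR adjusted p = 0.0547). Of the other relatives, Tfec rose in GFP_TGFB against GFP (0.70) and Mitf did not pass (-0.22). RNA levels do not show where these proteins are in the cell.

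**Figure D2:**
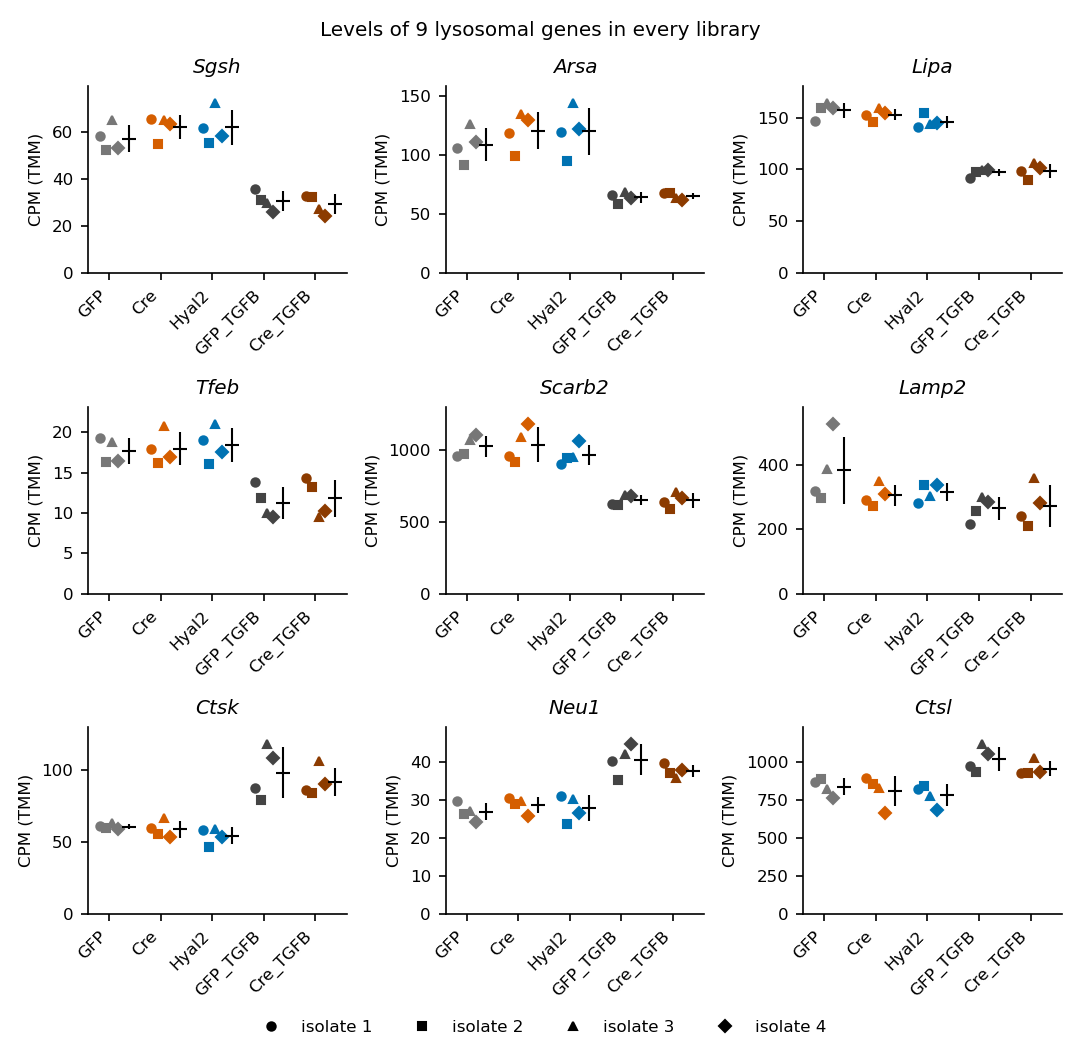
CPM of 9 genes in every library, by group on the x axis, with the marker shape giving the isolate and the bar at the right of each group the mean ± SD (n = 4). Sgsh, Arsa, Lipa, Tfeb and Scarb2 are lower in both groups with TGFB, Ctsk and Neu1 are higher, and GFP replicate 4 stands alone at 528 CPM for Lamp2.

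Promoters were searched for the motif that TFEB binds in many lysosomal genes. The 38 were chosen as lysosomal genes, so the share that holds the motif is not a result about TGFB. The windows were RefSeq promoters of build GRCm38.p6, from 250 bases before to 50 after the start, and 33 of the 38 genes had one. CACGTG, which reads the same on both strands, was in 12 of 33 (36.4%), against 8.09% of the 27025 genes with a window. The longer GTCACGTG, which contains it and was searched on both strands, was in 9 of 33 (27.3%) against 2.55%. A still longer form, extended at the other end until it also reads the same on both strands, was searched too. That form was in 0 of 33 (0.0%) against 0.37%, and with so few windows these shares cannot be told apart. The following stretches show GTCACGTG, on either strand, in 3 genes that fell with TGFB (Sgsh, Arsa and Naglu). They also show it in 3 that did not pass (Ctsd, Mcoln1 and Lamp1). The stretches run 5′ to 3′ on the strand of the gene, with CACGTG in capitals.
Sgsh, chr11:119355522-119355551, minus strand: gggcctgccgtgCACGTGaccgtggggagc
Arsa, chr15:89477425-89477452, minus strand: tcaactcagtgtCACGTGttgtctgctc
Naglu, chr11:101070009-101070038, plus strand: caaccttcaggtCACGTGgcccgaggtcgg
Ctsd, chr7:142387908-142387937, minus strand: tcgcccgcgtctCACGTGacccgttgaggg
Mcoln1, chr8:3500439-3500518, plus strand: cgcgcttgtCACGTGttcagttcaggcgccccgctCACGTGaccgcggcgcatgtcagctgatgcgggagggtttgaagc
Lamp1, chr8:13159091-13159160, plus strand: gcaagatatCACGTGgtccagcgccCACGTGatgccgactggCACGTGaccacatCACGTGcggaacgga
Lamp1 carried 4 copies within 61 bases of its start, and Mcoln1 and Ctsd carried 2 each. The copies of Ctsd lay 245 and 98 bases before its start, and the stretch shown holds 1 of them. None of these 3 genes passed the test with TGFB. By call, CACGTG was in 4 of 17 windows of genes that fell, in 1 of 5 of genes that rose (Ctsl) and in 7 of 11 of genes that did not pass. The 4 were Arsa, Ctsf, Naglu and Sgsh, and the 7 were Ctsa, Ctsd, Gaa, Gla, Glb1, Lamp1 and Mcoln1. V-ATPase subunits, of which 15 of 17 rose with TGFB, held CACGTG in 4 of 12 windows (33.3%). The counts are small and a match is a description of the letters, not of binding.

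The comparison of Cre_TGFB with Cre asks the same after deletion of Hyal2. There 23 of the 38 genes fell, 7 rose and 8 did not pass, with all genes at 29% lower, 27.5% higher and 56.5% either way. The median was -0.32, against -0.00 over all genes. Both comparisons called 18 genes lower and 4 higher (Ctsk, Ctsl, Gusb and Neu1), and 0 genes were called in opposite directions. The share of all genes called alike in both is not given here, so this count is not particular to lysosomal genes. The comparisons share isolates but no libraries. With library totals 25 fell and 4 rose, and without replicate 3, 21 fell and 2 rose. Groups did not overlap for 20 lower and 4 higher genes, where all genes gave 26.3% and 25%, or 51.2% either way.

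The values after Cre virus show how near each gene came to its level with GFP virus. Sgsh was at 65.4, 54.7, 65.1 and 63.2 CPM with Cre and at 33, 32.6, 27.3 and 24.4 CPM with Cre_TGFB (fall of 52.8%, edgeR adjusted p = 1.75e-07). Arsa was at 119, 99.0, 135 and 129.7 CPM and then at 67.8, 67.8, 64.0 and 62.1 CPM. Lipa was at 152, 146, 159 and 154 CPM and then at 98.4, 89.9, 106 and 101 CPM. These were the 3 largest falls of the GFP comparison, and the groups were again apart in each. Ctsf was at 42.7, 33.2, 53.2 and 44.9 CPM with Cre and at 25.5, 25, 20.6 and 25.8 CPM with Cre_TGFB. Scarb2 was at 962, 917, 1091 and 1185 CPM and then at 636, 588, 709.9 and 666 CPM. Tfeb was at 18, 16.2, 20.8 and 16.9 CPM and then at 14.3, 13.2, 9.48 and 10.3 CPM. The regulator gene thus fell in all 4 isolates with either virus, by 34.1% here (edgeR adjusted p = 9.73e-04). Hexa was at 199.9, 172, 224 and 204 CPM with Cre and at 136, 129, 123 and 131 CPM with Cre_TGFB, a fall of 35.1%.

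The genes that rose were also near their GFP values. Ctsk was at 59.6, 55.6, 67.0 and 53.4 CPM with Cre and at 86.3, 84.0, 106 and 90.4 CPM with Cre_TGFB (1.56-fold, edgeR adjusted p = 8.33e-05). Neu1 was at 30.5, 28.9, 29.8 and 25.9 CPM and then at 39.8, 37.1, 35.8 and 38 CPM (1.31-fold, edgeR adjusted p = 0.00114). Both genes were higher with TGFB in every isolate. Ctsl was at 891, 853, 831 and 665 CPM with Cre and at 928, 927, 1027 and 936 CPM with Cre_TGFB. Gusb was at 111, 107, 99.9 and 97.8 CPM and then at 117, 116, 109.8 and 117 CPM. The call of Ctsl (edgeR adjusted p = 0.0287) was lost without replicate 3 or 4, that of Gusb (adjusted p = 0.0473) without any 1 of the 4 replicates, and both with library totals, with no filter on low counts and with only the groups compared. Cd63 was at 549, 603, 534 and 505 CPM with Cre and at 593, 599.9, 572 and 603 CPM with Cre_TGFB, and overlapped. Lamp1 was at 978, 931, 1027 and 945 CPM and then at 868, 883, 965 and 902 CPM, which also overlapped. Lamp2 was at 291, 272, 349.7 and 308 CPM and then at 241, 209, 359 and 283 CPM. Neither Cd63 nor Lamp1 nor Lamp2 passed in this comparison. Genes called after Cre virus and not after GFP virus in the main edgeR fit were Asah1, Npc1 and Tpp1, which rose, and Ctsa, Gaa, Glb1, Man2b1 and Npc2, which fell. All of these except Man2b1 were called in the same direction after GFP virus in some alternative. For Asah1 this was only without GFP replicate 4, and for Glb1 only with library totals. Several of the calls after Cre virus were lost in some settings. Man2b1 lost its call in 6 of 11 alternatives, namely without replicate 1, 3 or 4, with DESeq2 size factors, with no filter and with only the groups compared. Tpp1 lost it in 6 as well, without replicate 1, 2 or 3, with no filter, with only the groups compared and with library totals. The call of Ids was lost without replicate 1, 3 or 4, those of Asah1 and Npc1 without replicate 3, that of Glb1 without replicate 4 and that of Idua without replicate 1.

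**Figure D3:**
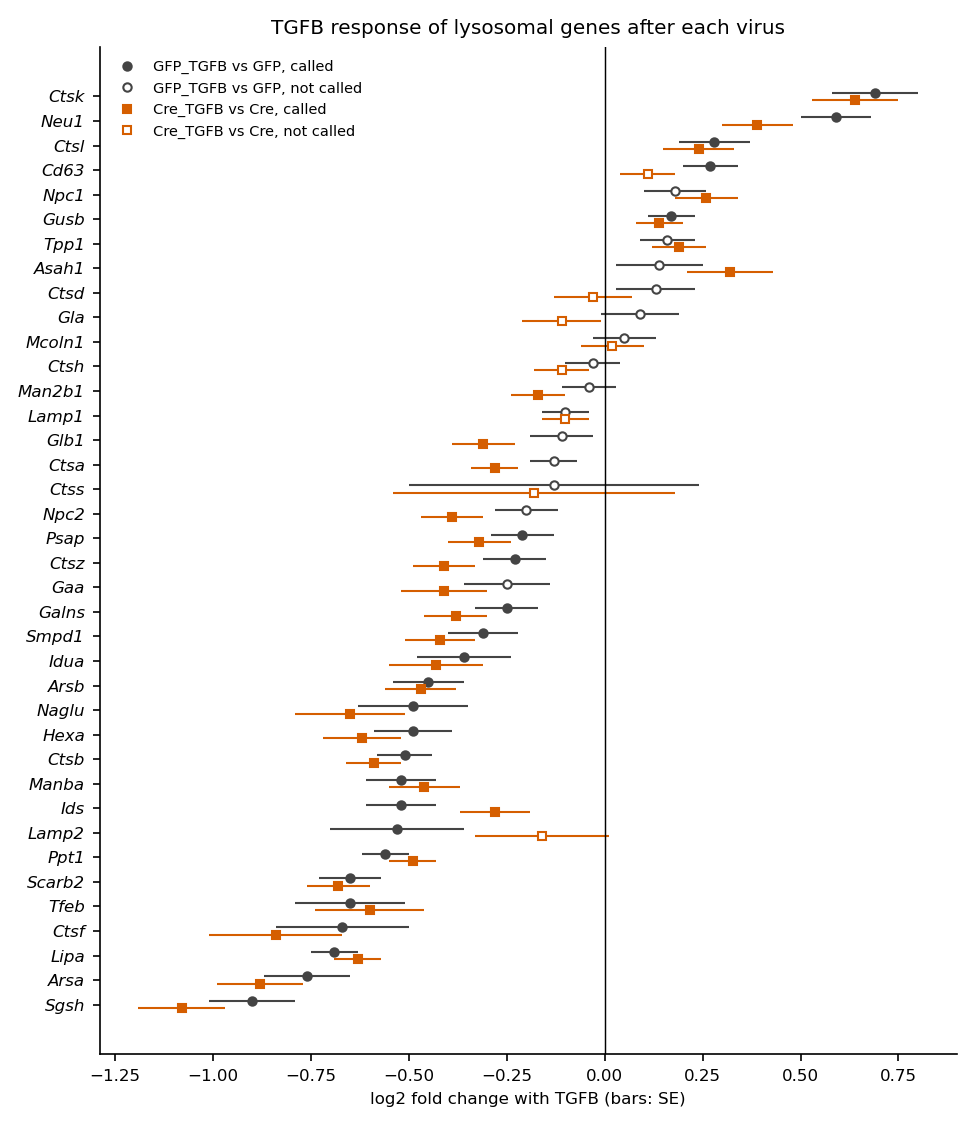
Log2 fold change with TGFB (x axis, bars are SE) for each of the 38 genes, after GFP virus (circles) and after Cre virus (squares), filled where the edgeR adjusted p was under 0.05. The order runs from Sgsh at -0.90 to Ctsk at 0.69 after GFP virus, and the squares lie near the circles for most genes.

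Whether the TGFB response differed between the viruses was tested as an interaction, the Cre_TGFB minus Cre difference less that of GFP_TGFB minus GFP. The interaction was called for 0 of the 38 genes by edgeR, as for 0.0% of all genes, and 0 had an unadjusted p under 0.05. DESeq2 and the replicate block also called 0 (0.0% of all genes in each), and the block put 1 gene under an unadjusted p of 0.05. The estimates ran from -0.21 for Glb1 to 0.37 for Lamp2, whose interval of 2 SE was -0.10 to 0.85. Their median was -0.08 and 29 of the 38 were below 0, against a median of -0.00 and 51% below 0 over all genes. The smallest unadjusted p of the 38 was 0.0824. For the typical gene the SE was 0.12. Differences under about 2 SE could not be told from 0 at this number of libraries, and after adjustment larger ones could be missed as well.

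Deletion of Hyal2 alone called 0 of the 38 genes (Cre against GFP, edgeR), where 1 of all genes tested, or 0.0064%, was called. None of the 38 had an unadjusted p under 0.05 by edgeR, 1 had by DESeq2 and 3 had with the block, and both alternatives called 0 (all genes 0.237% and 0.269%). The log2 fold changes ran from -0.33 for Lamp2 to 0.18 for Naglu with a median of 0.06, and 17 of the 38 were higher in all 4 isolates and 2 lower in all 4, where 15.9% of all genes were higher and 13.2% lower in all 4. Hexa had a log2 fold change of 0.07 (interval of 2 SE -0.14 to 0.27) and Gusb one of 0.05 (-0.07 to 0.17), so neither hyaluronan-digesting hydrolase moved beyond these bounds. The value of Lamp2 again rested on GFP replicate 4: its differences were -0.13, -0.14, -0.15 and -0.78 in isolates 1 to 4, and the log2 fold change was -0.14 without that library. Npc2 was the only gene of the 38 whose groups did not overlap, at 679 ± 30 CPM with GFP and 759 ± 53.8 CPM with Cre, where 3.68% of all genes did not overlap either way. With TGFB present, Cre_TGFB against GFP_TGFB called 0 of the 38 (all genes 0.0064%), 0 had an unadjusted p under 0.05 by edgeR or DESeq2, and the estimates ran from -0.11 for Neu1 to 0.15 for Ids.

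Overexpression of Hyal2 also called 0 of the 38 genes by edgeR, with all genes at 0.0064%. An unadjusted p under 0.05 was reached by 1 gene, Gla (log2 fold change -0.22, unadjusted p by edgeR = 0.0418), by 2 with DESeq2 and by 3 with the block, both of which called 0 (all genes 0.0064% in each). The estimates ran from -0.29 for Lamp2 to 0.17 for Ctsf. Hexa was at 199.7, 154, 227 and 197 CPM in the 4 Hyal2 libraries and Gusb at 100., 101, 99.2 and 98.1 CPM, within 2 SE of GFP. Tfeb was at 19, 16.1, 21.1 and 17.6 CPM, Lamp1 at 984, 897, 960.0 and 938 CPM and Lamp2 at 281, 338, 302 and 338 CPM. All 3 overlapped the GFP libraries. The genes that fell most with TGFB overlapped GFP as well: Sgsh was at 61.6, 55.4, 72.3 and 58.4 CPM, Arsa at 119.6, 94.9, 144 and 122 CPM, and Ctsf at 43.4, 28.7, 56.6 and 44.4 CPM. Lipa was at 141, 154, 144 and 145 CPM and Scarb2 at 903, 945, 949.8 and 1065 CPM. Of those that rose with TGFB, Ctsk was at 58.7, 46.4, 59.3 and 53.7 CPM, Neu1 at 31.1, 23.8, 30.3 and 26.6 CPM, Ctsl at 824, 843, 776 and 683 CPM and Cd63 at 522, 527, 482 and 456 CPM. In all 4 isolates 8 of the 38 were lower than GFP (Cd63, Ctsb, Ctsk, Ctsl, Ctss, Gla, Lipa and Scarb2) and 4 higher (Arsa, Ctsf, Gaa and Sgsh), where 6.89% of all genes were lower and 7.89% higher in all 4.

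The 4 isolates also allowed the TGFB response to be compared between sexes, with 2 isolates a sex. By edgeR, 0 of the 38 genes differed, where 1.38% of all genes did, and 7 of the 38 (18.4%) had an unadjusted p under 0.05, near the 16.5% of all genes. The smallest adjusted p was 0.103, for Arsb, which fell more in the male isolates (difference of log2 fold changes, male minus female, -0.36). With the replicate block, under which 6.05% of all genes were called, Ctsk (0.43, adjusted p = 0.0368) and Ctsl (0.33, adjusted p = 0.0484) rose more in male isolates. With DESeq2, under which 5.01% were called, Cd63 did (0.32, adjusted p = 0.0424). These 2 and 1 of 38 are no larger shares than those of all genes. Sex and isolate cannot be told apart beyond these 2 isolates a sex.

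Ctss varied most between isolates of a group (mean SD 0.589 on the log2 scale, against 0.244 for Ctsf, the next). Its mean over the 5 groups was 19.7 CPM in isolate 1, 16.1 in isolate 2, 11.1 in isolate 3 and 7.98 in isolate 4. The summed macrophage and leukocyte markers had means of 506, 370.1, 289 and 205 CPM in the same isolates, in the same order. With TGFB those markers were lower in every isolate. Ctss was lower in every isolate as well, with log2 differences of -0.07, -0.07, -0.14 and -0.35 in isolates 1 to 4, and did not pass the test (14.7 ± 4.83 CPM in GFP and 13.4 ± 5.29 CPM in GFP_TGFB, SD, n = 4). The part of such cells in the level of Ctss was not tested.

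**Figure D4:**
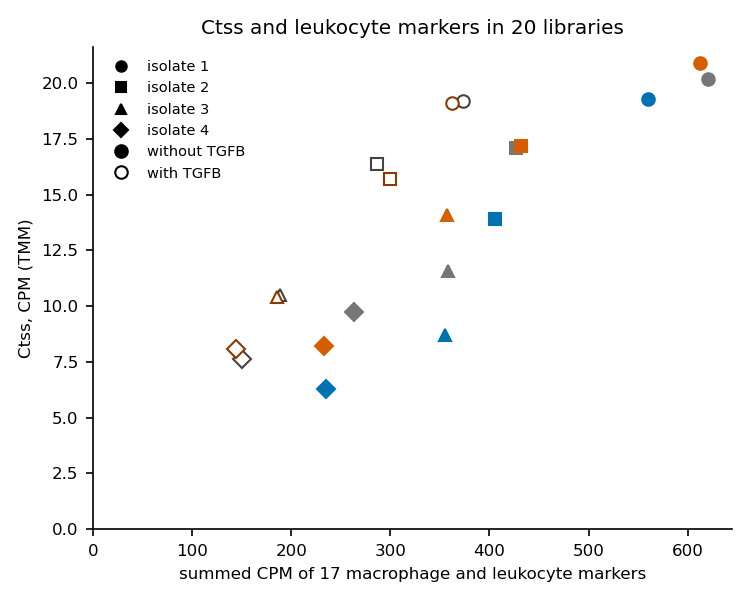
Ctss level (y axis, CPM) against the summed CPM of 17 macrophage and leukocyte markers (x axis) in the 20 libraries, with marker shape for isolate and open markers for TGFB. Isolate 1 holds the highest Ctss levels (19.1 to 20.9 CPM) and isolate 4 the lowest (6.29 to 9.72 CPM), with and without TGFB.

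Other lysosomal genes were read in the same comparison, GFP_TGFB with GFP. Of 28 further hydrolases and cofactors, 14 fell and 2 rose, with a median of -0.27, where 28.6% of all genes fell and 26.6% rose. The share called either way was thus near the 55.3% of all genes, with more of the calls on the lower side. The asparaginyl endopeptidase Lgmn fell from 319 to 127 CPM (log2 fold change -1.33) and the sialic acid esterase Siae from 30.9 to 12.5 CPM (-1.30), while the galactosylceramidase Galc rose from 13.7 to 34.8 CPM (1.34). Of 24 further membrane proteins and transporters, 9 fell and 4 rose, with a median of -0.16, a share of calls near the 55.3% of all genes. With library totals 13 fell and 1 rose, and after Cre virus 8 fell and 1 rose with a median of -0.02. The cation channel Tpcn2 (-0.52) and Laptm4b (-0.44) fell and Tmem192 (0.44) rose.

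The proton pump went the other way. Of 17 tested V-ATPase subunits, 15 rose and 0 fell, with a median of 0.49, where 26.6% of all genes rose. Their summed level was 1293 to 1436 CPM in GFP and 1832 to 1977 CPM in GFP_TGFB. Atp6v1b2 rose from 71.3 to 119 CPM (log2 fold change 0.73), Atp6v0b from 62.0 to 105 CPM (0.76) and Atp6v0a1 from 62.7 to 97.4 CPM (0.64). After Cre virus 14 of 17 rose and 0 fell, and with library totals 13 rose and 0 fell with either virus. Pump subunits and the 38 lysosomal genes therefore had medians of opposite sign in the same libraries.

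Sorting and inhibitor genes were mixed. Of 10 genes of mannose 6-phosphate tagging and sorting, 2 rose and 1 fell, a smaller share of calls than the 55.3% of all genes. The receptor M6pr (0.26) and the adaptor Gga2 (0.19) rose and Gnptg (-0.49), a subunit of the tagging enzyme, fell. With library totals 0 rose and 2 fell. Of 7 cathepsin inhibitor genes, 4 were tested. The secreted cystatins Cst3 (478 to 202 CPM, -1.24) and Cst6 (14.9 to 3.5 CPM, -2.09) fell, and the cytosolic cystatin Cstb rose (82.6 to 131 CPM, 0.67). Of 5 other genes of hyaluronan breakdown, Hyal2 among them, 3 fell and 0 rose, where 28.6% of all genes fell. The 3 were Cemip (-1.12), Hyal1 (-0.54) and Cemip2 (-0.36). After Cre virus 1 of the 5 fell, Cemip (-0.95), while Hyal1 (-0.26) and Cemip2 (-0.12) did not pass.

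**Figure D5:**
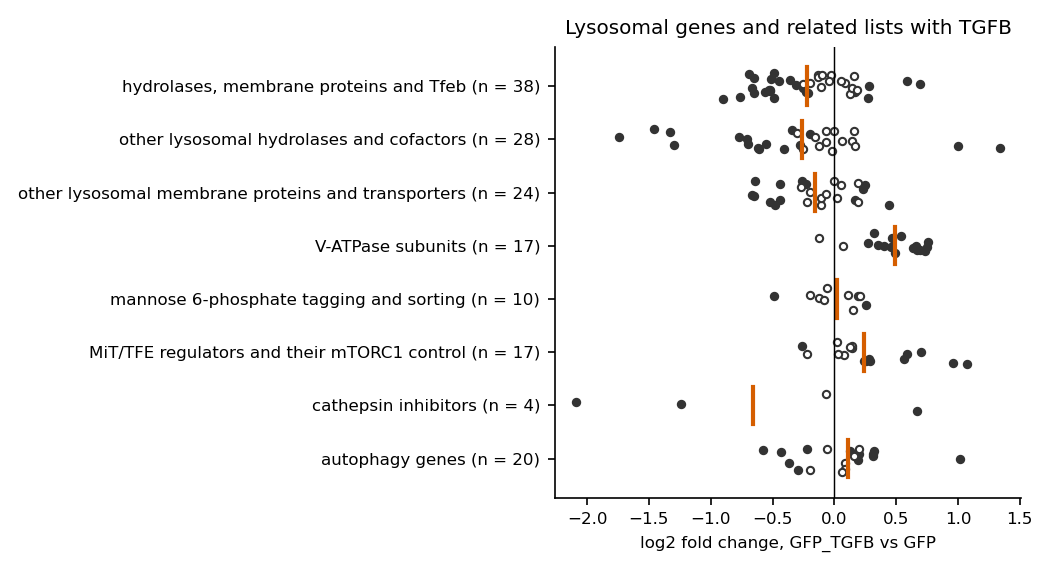
Log2 fold changes in GFP_TGFB against GFP (x axis) for the 38 genes and for related lists (rows), 1 point per tested gene, filled where the edgeR adjusted p was under 0.05, with the median as an orange bar. V-ATPase subunits lie to the right with a median of 0.49, and the 38 genes and the other hydrolases lie mostly to the left with medians of -0.22 and -0.27.

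Some of the 38 genes share exonic bases with a neighbour, and whether the counting used strand is not given in the sources used here. In the annotation of the earlier build, Ctsd shares 34.4% of its exon length with Gm49369, at 0.00670 CPM in GFP. Both lie on the same strand, so strand would not separate their reads. Arsb shares 32.3% with Gm26527, for which no level was available. Ctsl shares 26.8% with Gm47123, at 0.0333 CPM, and Sgsh 21.6% with Card14, at 0.258 CPM in GFP. Ctsa shares 10.5% with Pltp, at 59.1 CPM with a log2 fold change of -1.26, and Hexa 12.8% with Tmem202, at 1.04 CPM. Ctsb shares 12.8% with Fdft1, at 30.5 CPM. Ppt1 shares 3.51% with Cap1, at 369.9 CPM with a log2 fold change of 0.49, and Npc1 shares 4.52% with Rmc1, at 23.4 CPM and 0.60. Idua shares 3.35% with Slc26a1, at 0.376 CPM and -1.43. The neighbours Pltp, Rmc1, Tmem202 (1.58) and Slc26a1 changed more than Ctsa, Npc1, Hexa and Idua did, and Fdft1 (0.31) and Cap1 changed opposite to Ctsb and Ppt1. The values of these genes are uncertain to the extent that reads were shared.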

How the data were processed

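RNA-seq libraries of 20 cultures were analysed. The deposited values are raw gene counts, made by the authors with FastQC 0.10.1 and HTSeq 0.10.0 on GRCm39 (mm39), per the submitters' processing notes; aligner, annotation release and strandedness were not given in the sources used here. The libraries were NEBNext Ultra II, per the labels' protocols. All 20 columns matched a labelled sample. Symbols, exon lengths and overlaps came from the GENCODE annotation of GRCm38 (52081 of 55414 identifiers had a symbol; 222 of 223 list entries matched), and promoters from RefSeq, GRCm38.p6.

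Counts were tested with edgeR 4.0.16 (R 4.3.3): TMM factors, filterByExpr (count of 10 or more in 4 or more libraries and a total of 15), 1 fit of all 20 libraries with a mean per group (per group and sex for the sex difference), robust quasi-likelihood F test, Benjamini-Hochberg adjustment over 15624 genes, calls under 0.05. The fits were tested on simulated data. SE is the size of the log2 fold change over the root of F, and intervals are 2 SE wide on each side. Alternatives were DESeq2 1.42.0, its size factors in edgeR, no filter, a replicate block, only the groups compared, each replicate left out and, chosen after seeing the data, GFP replicate 4 left out and library totals without TMM.

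Replicate numbers pair the libraries: library names share an isolate code, and deviations from group means correlated at 0.114 to 0.712 (median 0.41) in all 40 same-number pairs, against a median of -0.249 in 120 others. Nothing states how the isolates were made, so p-values measure the spread between these 4 isolates.

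The 38 genes and all lists were chosen with earlier results of these data known; 1 further gene is not reported here and was left out of the lists. Values in every library are given for the 6 called genes that moved most each way in GFP_TGFB against GFP (only 5 rose), for genes called in a test of Cre, of Hyal2 or of an interaction, and for Lamp1, Lamp2, Tfeb, Gusb and Hexa; of other lists, the 3 genes with the smallest p. Tfe3, Tfec, Mitf, Lamtor1, Lamtor2, Lamtor4, Lamtor5, Col1a1, Col1a2, Col3a1 and genes in overlap or single-gene statements were named after their values were seen.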

Additional observations from a re-analysis of the deposited data

Results flagged for a closer look

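In 190 groups of 4 libraries (38 genes in 5 groups), the lowest or highest library stood apart from the other 3 in 11, where chance gives about 1 in 20. The lowest library stood apart in Cre replicate 2 for Gaa (192 CPM, others 245 to 255), Ids (42.6 CPM, others 52.8 to 54.8), Manba (26 CPM, others 34.2 to 34.8) and Man2b1 (80.6 CPM, others 93.5 to 95.2), so 4 of the 11 fell in that library. In Cre_TGFB replicate 3, Ctsf (20.6 CPM) and Gusb (109.8 CPM) were low and Ctsl (1027 CPM) was high. Single cases were Ctsa in GFP_TGFB replicate 1 (256 CPM), Tpp1 in GFP_TGFB replicate 3 (154 CPM), Npc2 in Cre replicate 3 (839.7 CPM) and Mcoln1 in Cre_TGFB replicate 4 (40.9 CPM). The gap for Ctsa was small in size, since its other libraries were all at 262 CPM.

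A difference in the TGFB response between male and female isolates was called for Ctsk (0.43) and Ctsl (0.33) with the replicate block and for Cd63 (0.32) with DESeq2, as differences of log2 fold changes, male minus female. None of the 3 passed in edgeR without the block. The calls, 2 and 1 of 38, are no larger shares than the 6.05% and 5.01% of all genes called by the same fits.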

How the results depend on the processing

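Of 11 alternatives to the edgeR fit, the count of the 38 genes called lower stayed within 1.5 times its value in every TGFB comparison. The count called higher moved more. In GFP_TGFB against GFP it was 3 to 5 when 1 replicate number was left out (5 with all libraries, 6 without GFP replicate 4) and 2 with library totals. It was 7 with DESeq2, 7 with its size factors in edgeR, 6 with only the groups compared and 4 without the filter on low counts. In Cre_TGFB against Cre it was 4 without the filter on low counts, 4 with only the groups compared, 4 with library totals and 2 to 5 when 1 replicate number was left out (7 with all). In the sex difference 1 gene was called higher by DESeq2 and 2 with the replicate block; leaving out a replicate there leaves means of 1 library, assumed to vary like the others. The block raised the counts in GFP_TGFB against GFP to 7 higher and 22 lower and, besides the calls given with it above, changed no other call of the 38 genes. Signs turned for some values that passed in no setting. With library totals these were Gla (-0.02) and Mcoln1 (-0.06) in GFP_TGFB against GFP and Mcoln1 (-0.06) in Cre_TGFB against Cre. Without replicate 2, Mcoln1 was at -0.02 in Cre_TGFB against Cre. In Cre against GFP, Lamp1 was at 0.02 without replicate 4 and 0.01 without GFP replicate 4, and Tfeb at -0.01 without replicate 3 and -0.01 without GFP replicate 4 (up to 0.07 without replicate 1). Gusb was at 0.04 in Hyal2 against GFP without replicate 1, and Lamp2 at -0.05 in Cre_TGFB against GFP_TGFB without replicate 3 (up to 0.15 without replicate 2). In the interaction, Tfeb was at -0.01 without replicate 1 (0.11 without replicate 3) and Gusb at 0.01 without replicate 4 and 0.02 without GFP replicate 4. In the sex difference, Lamp2 (-0.27 with all libraries) was at 0.01 without replicate 4 and -0.49 without replicate 3, and Hexa at 0.10 without replicate 3 and -0.16 without replicate 4. The cause of these changes was not tested. With 4 libraries a group, changes of a few percent could not be called.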

Other observations

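Autophagy genes deliver cargo to lysosomes. Of 20 tested in GFP_TGFB against GFP, 8 rose and 5 fell by edgeR, with a median of 0.11, where 26.6% of all genes rose, 28.6% fell and 55.3% were called either way. Sqstm1, the cargo receptor p62, rose from 499.9 to 1017 CPM (edgeR adjusted p = 3.77e-06, log2 fold change 1.02), and Becn1, part of the kinase complex that starts autophagosomes, rose from 104 to 129 CPM (0.31). Wipi1, a phosphoinositide-binding protein of the forming autophagosome, fell from 162 to 108 CPM (-0.58). With library totals 4 rose and 7 fell. After Cre virus 6 of the 20 rose and 5 fell.

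Among the further hydrolases, the cysteine protease Ctso fell from 33.3 to 9.92 CPM (log2 fold change -1.74) and Ctsc, which activates serine proteases of immune cells, rose from 21 to 42.1 CPM (1.00) in GFP_TGFB against GFP. Both were chosen after their values were seen.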
